A study of Triticum aestivum with 4 samples.

Results

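The peaks described here are the CCA1 DAP-seq peaks on chromosomes 1A, 1B and 1D of bread wheat, the 3 homoeologues of group 1. They were chosen by position alone, as every peak of the deposited list whose chromosome is 1A, 1B or 1D, and they number 57458 of 467343 peaks in the list. Chromosome 1A carried 19807 peaks, 1B carried 22161 and 1D carried 15490. The other 18 named chromosomes carried 402672 peaks and served for comparison, while peaks on unplaced scaffolds were left out. DNA affinity purification sequencing (DAP-seq) passes sheared genomic DNA over a bead-bound transcription factor and reads out the retained DNA by sequencing. The bait was wheat TaCCA1-7D fused to maltose-binding protein (MBP), and the DNA was extracted from leaves of 2-week-old seedlings of the cultivar Fielder. The series holds 2 CCA1 libraries and 2 input libraries, all from Fielder leaf DNA with no other genotype or treatment. The bait met sheared, purified DNA, so the assay does not read the chromatin state of the leaf. The CCA1 libraries share 1 peak list, which gives neither a replicate error nor a test between libraries, and the read depth of the libraries was not analysed here.

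CCA1 is a MYB-type transcription factor of the plant circadian clock. In Arabidopsis it accumulates around dawn and binds the evening element, a short AT-rich sequence in the promoters of clock genes and clock outputs, many of them acting in photosynthesis. Bread wheat is an allohexaploid whose A, B and D subgenomes each contribute 1 homoeologue to each of 7 groups. The homoeologues of a group descend from the same ancestral chromosome and carry largely the same genes, but most of their length is repetitive DNA that differs between the subgenomes.

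Promoters of a pair of 1D genes were represented among the oligonucleotides that the study designed to assay TaCCA1-7D binding in vitro. They are shown because they carry AATATC, the core of the evening element, and are the only sequences of group 1 at hand. TraesCS1D02G226100 encodes CHLG, the chlorophyll synthase that completes chlorophyll synthesis, and TraesCS1D02G295200 encodes the reaction centre protein L of photosystem II. Each oligonucleotide was 36 nt long, and AATATC was searched on both strands. In the wild-type reverse strands the capitals mark AATATC, and in the mutated strands they mark the 5 bases that were changed.
DAP1 reverse: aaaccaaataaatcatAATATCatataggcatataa
DAP1 mutated reverse: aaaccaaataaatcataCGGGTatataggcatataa
DAP2 reverse: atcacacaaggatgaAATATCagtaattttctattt
DAP2 mutated reverse: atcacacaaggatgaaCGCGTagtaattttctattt
AATATC occurred once in the DAP1 strand, at bases 17 to 22 from its 5′ end, and once in the DAP2 strand, at bases 16 to 21, and both mutated strands had 0 matches on either strand. The GC content was 19.4% for DAP1 and 25.0% for DAP2. Both genes lie on 1D by their identifiers, but the genes and oligonucleotides were not placed among the peaks, because neither the sequence nor the genes of the authors' build were at hand.

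Peaks were spread over the whole length of the 3 chromosomes, at a similar rate on each. Up to the last peak, the density was 33.3 peaks per Mb on 1A, 32.1 on 1B and 31.3 on 1D. Among the 7 chromosomes of their own subgenomes, 1A ranked 5th and 1B ranked 4th from the highest, and both lay inside the range of the other 6, which was 32.2 to 34.4 in A and 31.3 to 33.5 in B. Chromosome 1D had the lowest density of the D subgenome, where the other 6 ranged from 31.9 to 33.1. All of the group 1 peaks together took up 29.7 Mb, or 1.67% of the 1779 Mb up to the last peaks. Group 1 held 12.5% of the peaks and 12.6% of the length of the 21 named chromosomes.

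Between group 1 and the other chromosomes 6 measures were compared, and none passed the test. The test was an exact two-sided permutation test that moved the group 1 label among the 7 chromosomes of each subgenome; the smallest p it allows is 0.00292. The 6 p-values were adjusted by the Benjamini-Hochberg method. The values given for group 1 and for the others are means over chromosomes, each chromosome counting once, and not shares of pooled peaks. The chromosomes all come from 1 list and stand for no replicates, and the p-values speak only of that list. The density differed by −0.503 peaks per Mb (32.3 in group 1 against 32.8, lower in 3 of 3 subgenomes, exact permutation p = 0.242, adjusted p = 0.455). The median width differed by −1.17 bp (482 against 483 bp, lower in 1 of 3 subgenomes, exact permutation p = 0.603, adjusted p = 0.603). The median fold enrichment differed by 0.00928 (6.19 against 6.18, higher in 2 of 3 subgenomes, exact permutation p = 0.192, adjusted p = 0.455). The share of strong peaks, those with a fold enrichment above 10, was 3.04% in group 1 and 2.86% elsewhere. That difference of 0.187 percentage points had an exact permutation p of 0.0262 and did not pass after adjustment (adjusted p = 0.157). The mean share of neighbouring summits within 2 kb of each other was 3.96% in group 1 and 4.02% elsewhere (lower in 2 of 3 subgenomes, exact permutation p = 0.429, adjusted p = 0.514). The coefficient of variation (CV) of the number of peaks over 10 Mb bins was 11.5% in group 1 and 10.3% elsewhere (exact permutation p = 0.303, adjusted p = 0.455). Its difference was 0.159 percentage points in A, −0.316 in B and 3.82 in D, so it rested mainly on 1D.

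**Figure D1:**
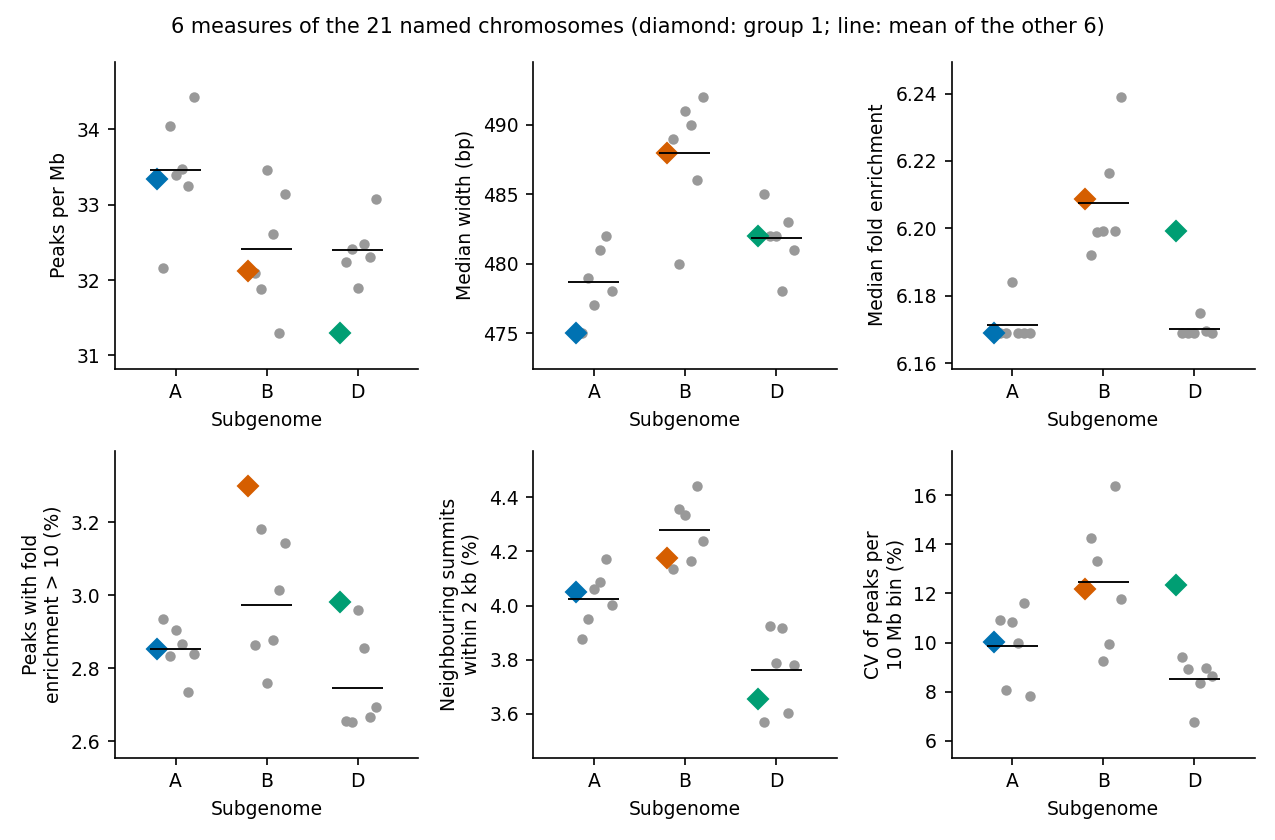
Each panel plots 1 of the 6 measures (units on the vertical axis, not starting at 0) for the 7 chromosomes of each subgenome: diamonds are 1A, 1B and 1D, grey points the other 6 chromosomes and lines their mean. 1D lay below the other D chromosomes in density, at 31.3 peaks per Mb, and above them in CV, at 12.3%, while 1B had the highest share of strong peaks, 3.30%.

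The share of strong peaks was highest on 1B. The fold enrichment is the ratio of the tag pileup at the summit to the local background, each with a pseudocount, and the authors kept peaks above 5. Over all 21 named chromosomes 2.89% of the peaks exceeded 10. On 1A, 565 peaks did so, or 2.85% (95% Wilson interval 2.63 to 3.09%), near the mean of the other A chromosomes, which was also 2.85%. On 1B, 731 peaks exceeded 10, or 3.30% (3.07 to 3.54%), the highest share of the 21 chromosomes (2.65 to 3.18% on the 18 others outside group 1). On 1D, 462 peaks did so, or 2.98% (2.73 to 3.26%), the highest share of the D subgenome (2.65 to 2.96% on the other 6). The intervals of 1A and 1B overlapped only slightly, and those of 1D overlapped both. They cover counting error only and take the peaks as independent. These ranks were read off after the values were seen and carry no test of their own. A fold enrichment above 20 was reached by 3 peaks on 1A (0.0151%), 9 on 1B (0.0406%) and 9 on 1D (0.0581%). On the other 18 chromosomes together the share was 0.0340%.

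Width varied little between the homoeologues. The median width was 475 bp on 1A, 488 bp on 1B and 482 bp on 1D, and the quartiles were 323 and 653 bp, 332 and 670 bp, and 329 and 658 bp. The order 1B, 1D, 1A followed the subgenomes, since the other chromosomes averaged 479 bp in A, 488 bp in B and 482 bp in D. Peaks of 1 kb or wider made up 3.58% of the peaks on 1A, 3.99% on 1B and 3.49% on 1D. The shortest peak was 176 bp long on all 3 chromosomes. The widest peak of 1A spanned 1815 bp, from 277814362 to 277816176, at a fold enrichment of 7.67. The widest peak of 1B spanned 1785 bp, from 683311039 to 683312823, at a fold enrichment of 12.3. The widest peak of 1D spanned 1828 bp, from 5471217 to 5473044, at a fold enrichment of 6.46. These coordinates and all others are those of the authors' list, in the Ensembl wheat genome they aligned to, counted from 1. Wider peaks also had more tags: Spearman's rho between width and pileup over peaks was 0.410 on 1A, 0.419 on 1B and 0.400 on 1D. This is a description over 19807, 22161 and 15490 peaks of 1 list, in which width and pileup come from the same tags. On 1A the median width went from 338 bp at a pileup of 8 or 9 tags to 676 bp at 20 tags or more, and the same classes gave 338 and 678 bp on 1B and 344 and 685 bp on 1D.

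The pileup and the background behind each peak were worked back from the deposited fold enrichment and p-value, and a whole-number pileup was found for 100.0% of the group 1 peaks. The median pileup was 12 tags on each of 1A, 1B and 1D. Under 20 tags lay behind 92.3% of the peaks on 1A, 91.0% on 1B and 92.5% on 1D. A single fold enrichment is therefore a ratio of small counts and moves in steps. At the lowest background of the list, 0.621 tags, a pileup of 8 tags gives 5.55 and a pileup of 9 gives 6.17, and the latter value alone was shared by 1009 peaks on 1A, 1144 on 1B and 871 on 1D. The median fold enrichment was 6.17 on 1A, 6.21 on 1B and 6.20 on 1D, within less than 1 such step of each other. The background was at its lowest value for 21.9% of the peaks on 1A, 21.7% on 1B and 23.5% on 1D, the last being the highest share of the 21 chromosomes.

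The strongest peaks of each homoeologue lay in different parts of the chromosomes. On 1A the highest fold enrichment was 29.4, in the first peak of the chromosome, from 227113 to 227389 (64 tags over a background of 1.21). The next on 1A were 27.0 from 584778928 to 584779288 (139 tags) and 26.3 from 67135494 to 67135793 (116 tags). On 1B the highest was 31.1, from 532708469 to 532708894 (110 tags over 2.57), which was also the highest in group 1. It was followed on 1B by 24.8 from 516681413 to 516682119, whose 225 tags were the largest pileup of the chromosome, and by 23.5 from 135217862 to 135218166, with 39 tags over a background of 0.704. On 1D the highest was 29.8, from 273045282 to 273045649 (97 tags over 2.29), followed by 26.7 from 465498998 to 465499290 (51 tags) and 26.5 from 30127917 to 30128596 (100 tags). These 9 peaks were 277 to 707 bp wide, and a similar fold enrichment rested on between 39 and 225 tags. The genes nearest to them were not identified here.

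Along the chromosomes, 104 of the 176 complete 10 Mb bins held between 300 and 350 peaks, with a few bins far below. The median over complete bins was 341 peaks on 1A (59 bins, quartiles 316 and 352), 324 on 1B (68 bins, 306 and 347) and 320 on 1D (49 bins, 299 and 340). On the other 18 chromosomes the medians ranged from 314 to 347. Fewer than 250 peaks were found in 9 of the 176 group 1 bins (5.11%) and in 40 of the 1221 bins of the other chromosomes (3.28%). Of the 9 bins, 1 was on 1A, 5 were on 1B and 3 were on 1D. More than 380 peaks were found in 2 group 1 bins (1.14%) and in 41 of the other bins (3.36%). These shares were not tested, because bins of a chromosome are neighbours in 1 list.

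On 1A the richest bin, from 70 to 80 Mb, held 392 peaks, and the poorest, from 210 to 220 Mb, held 213. The median fold enrichment of the poorest bin was 6.17, the value of the whole chromosome. Its mean pileup of 12 tags was the lowest of the complete bins of 1A and the third lowest of the 1397 complete bins of the 21 chromosomes, and 7.04% of its peaks were 1 kb or wider against 3.58% on all of 1A. A second sparse bin, from 420 to 430 Mb, held 252 peaks but had the highest share of strong peaks among the complete bins of 1A, 5.16% (13 peaks). The highest median fold enrichment of a 1A bin was 6.55, from 10 to 20 Mb, and the lowest was 6.06, from 300 to 310 Mb, where the median width was also the lowest on 1A, at 412 bp.

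On 1B the richest bin, from 190 to 200 Mb, held 379 peaks, and the poorest, from 240 to 250 Mb, held 218. Its other bins under 250 peaks held 242 (310 to 320 Mb), 241 (320 to 330 Mb), 247 (510 to 520 Mb) and 220 (570 to 580 Mb). At a resolution of 1 Mb, the 4 bins from 318 to 322 Mb held 3, 4, 3 and 4 peaks, against a median of 33.0 peaks per 1 Mb bin on 1B. In total 18 of the 689 complete 1 Mb bins of 1B (2.61%) held 10 peaks or fewer, compared with 3 of 594 on 1A (0.505%) and 10 of 494 on 1D (2.02%). Each of the other 18 chromosomes had 0 to 28 such bins, with shares of 0 to 3.61%. The median fold enrichment of 10 Mb bins ranged from 6.12 (150 to 160 Mb, with the largest median width on 1B, 530 bp) to 6.53 (10 to 20 Mb).

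On 1D both extremes lay at the ends. The first 10 Mb held 419 peaks, the third highest number among the 1397 complete bins of the 21 chromosomes. The bin from 480 to 490 Mb held 189, the seventh lowest. The next poorest bins of 1D held 207 (30 to 40 Mb) and 225 peaks (410 to 420 Mb). Within the last part of 1D the fall was abrupt at 1 Mb resolution: 38 peaks were found from 483 to 484 Mb, 16 from 484 to 485 Mb and 8 from 485 to 486 Mb. From 484 Mb to the last peak, a length of 10.9 Mb, the chromosome carried 81 peaks, or 7.40 per Mb, against 31.8 per Mb before it. The 10 complete 1 Mb bins of this stretch held between 1 and 16 peaks. The peaks in it had a median width of 345 bp, against 482 bp on all of 1D, and a median fold enrichment of 6.69, against 6.20, and 8 of the 81 (9.88%) exceeded 10. Without this stretch, a limit set after the values were seen, 1D still had the lowest density of the D subgenome (rank 7 of 7), and without the bin from 480 to 490 Mb its CV over 10 Mb bins was 10.9% in place of 12.3%, still the highest of the 7. The highest median fold enrichment of a 1D bin was 6.53, from 180 to 190 Mb, where the median width was also the largest, 524 bp. The lowest was 6.17, which several bins of 1D shared to the digits given.

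**Figure D2:**
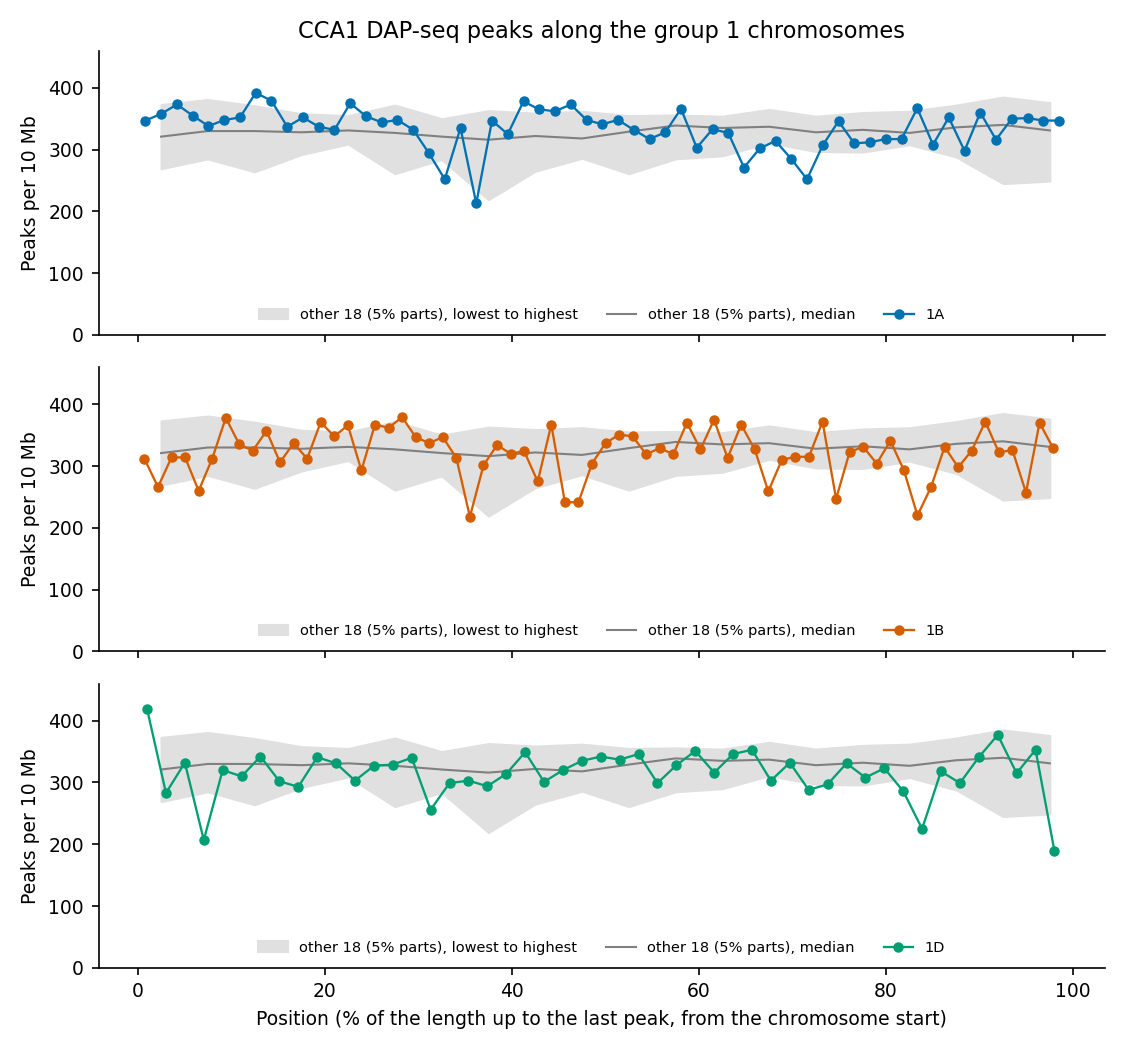
Number of peaks in each complete 10 Mb bin of 1A, 1B and 1D (points) against the position of the bin's centre as a percentage of the chromosome's length, with the median (line) and the range (band) of the other 18 chromosomes in parts of 5% of the length, scaled to 10 Mb. The parts are longer than the bins, so the band is narrower than the range of single bins. Complete 10 Mb bins of the other 18 chromosomes ran from 78 to 431 peaks. Of 176 bins, 104 lie between 300 and 350 peaks, and 1D runs from 419 peaks in its first bin to 189 in its last complete one.

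At equal relative positions, the density profiles of the homoeologues were little alike. When each chromosome was divided into 20 equal parts, Pearson's r between density profiles was 0.0520 for 1A and 1B, 0.121 for 1A and 1D, and −0.0420 for 1B and 1D. The mean over these 3 pairs was 0.0436, compared with 0.0998 over the 18 homoeologous pairs of the other groups (−0.365 to 0.491) and 0.0552 over 54 pairs of a group 1 chromosome with a chromosome of another group. The profiles of the share of strong peaks were more alike, with r of 0.590 for 1A and 1B, 0.0731 for 1A and 1D and 0.326 for 1B and 1D. Their mean was 0.330, compared with 0.441 over the 18 homoeologous pairs of the other groups and 0.352 between group 1 and other groups. These correlations describe 20 neighbouring parts of chromosomes in 1 list and carry no p. Equal relative positions need not be matching stretches of the homoeologues, and no gene positions were used. Whether matching stretches share rich and poor regions was therefore not tested.

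Within group 1, the outer 10% parts with the highest shares of strong peaks were those of 1B. In its first 10%, 96 of 2118 peaks had a fold enrichment above 10 (4.53%, 95% Wilson interval 3.73 to 5.50%), compared with 2.96% (2.72 to 3.22%) in the middle 80% and 4.80% (4.00 to 5.75%) in the last 10%. The intervals take the peaks as independent, which neighbours may not be, and no test was run on these parts. On 1A the shares were 3.33% (2.64 to 4.18%), 2.76% (2.52 to 3.03%) and 3.06% (2.39 to 3.90%), with overlapping intervals. On 1D they were 3.50% (2.69 to 4.53%), 2.83% (2.55 to 3.13%) and 3.82% (2.94 to 4.95%), with overlapping intervals as well. Both ends exceeded the middle on 3 of 3 group 1 chromosomes and on 16 of the other 18, so the pattern was not particular to group 1. The mean of the 2 ends exceeded the middle by 0.430 percentage points on 1A, 0.830 on 1D and 1.71 on 1B, and the differences on the other 18 chromosomes reached 1.70 percentage points. The high share on 1B was also seen away from the ends, where 2.96% was the highest of the 21 chromosomes. On 1D the middle ranked 3rd of 7, with 2.83%.

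The density differed between the ends of the homoeologues. On 1A the first and last 10% carried 35.4 and 34.1 peaks per Mb and the middle 33.0. On 1B the first 10% was the poorest, with 30.7 peaks per Mb against 32.1 in the middle and 33.5 in the last 10%. On 1D the values were 31.2, 31.6 and 28.6. In the outermost 5 Mb the contrast was larger on 1D, with 200 peaks at its start and 37 at its end, while 1A had 182 and 183 and 1B had 148 and 194. A fold enrichment above 10 was found for 9 peaks in the first (4.95%) and 2 in the last 5 Mb of 1A (1.09%). On 1B it was found for 7 in the first (4.73%) and 15 in the last 5 Mb (7.73%). On 1D it was found for 9 in the first (4.50%) and 4 in the last 5 Mb (10.8%). Over all 21 named chromosomes the share was 2.89%. Each end share rests on 2 to 15 strong peaks, that of 10.8% on 4 of 37 peaks, and none was tested.

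**Figure D3:**
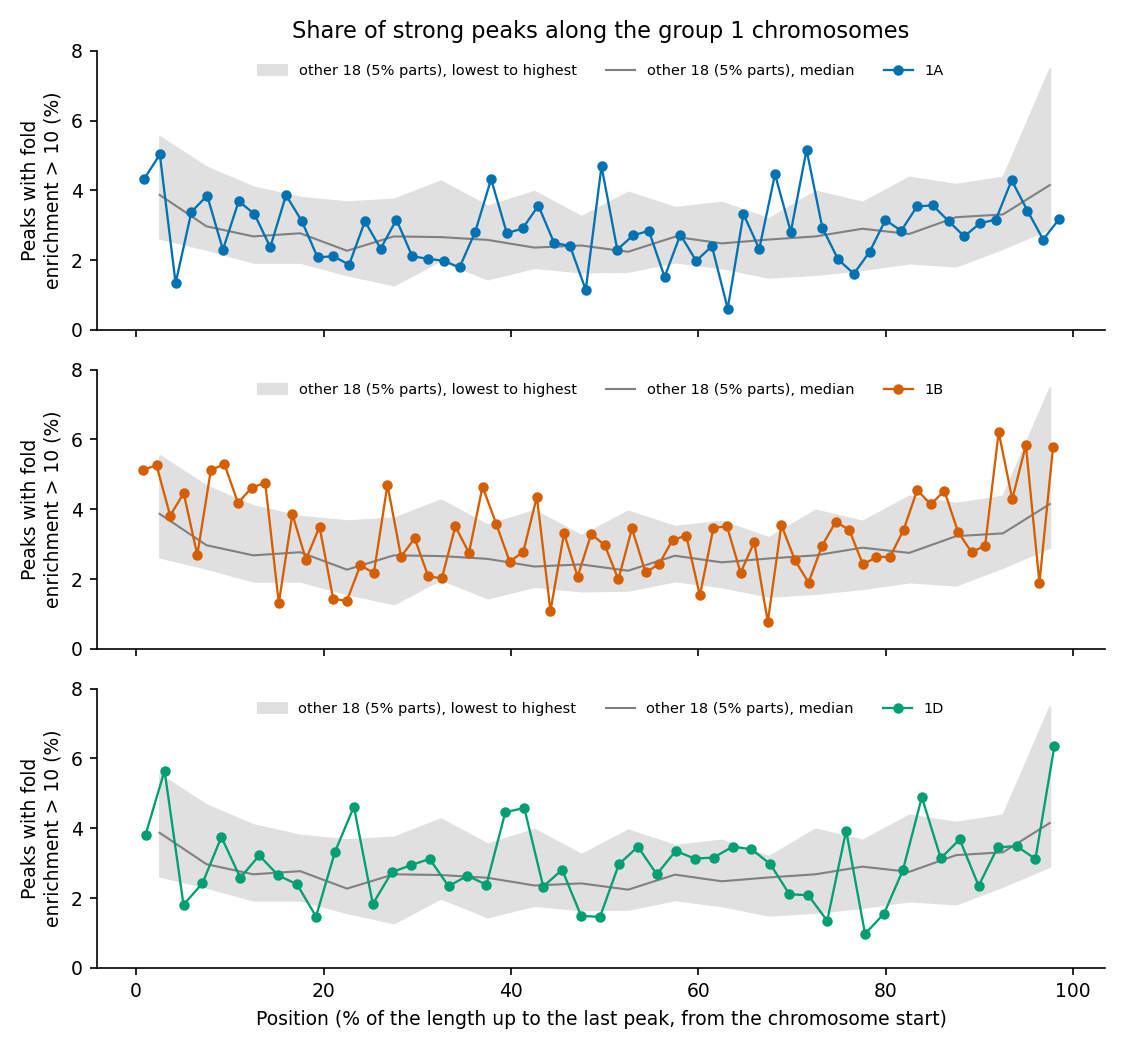
Percentage of peaks with a fold enrichment above 10 in each complete 10 Mb bin of 1A, 1B and 1D (points), plotted as for the density, with the median and range of the other 18 chromosomes in parts of 5% of the length. The parts are longer than the bins, and complete 10 Mb bins of the other 18 chromosomes reached 12.3%. The highest complete bins were 6.21% on 1B and 6.35% on 1D, where 20 and 12 peaks were above 10, and 5.16% on 1A, in the bin from 420 to 430 Mb.

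The peak caller numbered its peaks along the chromosomes before the filter, which gives the number of peaks that were called and not kept. On 1A 41.5% of 47674 numbered peaks were in the list, on 1B 43.6% of 50771 and on 1D 41.8% of 37014, if every number was used once. The lower density of 1D was present among the numbered peaks too, with 74.8 per Mb, the lowest of the D subgenome (76.8 to 78.7 on the other 6). The kept share was higher at the ends, at 43.4% and 44.9% in the first and last 10% of 1A against 40.9% in its middle. For 1B the values were 45.9%, 45.3% and 43.2%, and for 1D 44.5%, 43.6% and 41.4%. The other 18 chromosomes together had 43.8%, 44.6% and 42.0%, so the pattern was not particular to group 1. In the sparse end of 1D 164 numbers were used, or 14.99 per Mb, so few peaks were called there at all.

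Neighbouring summits were about 20 kb apart, with a shortage of distances of 2 to 5 kb. The median distance was 20586 bp on 1A, 20980 bp on 1B and 22053 bp on 1D, the last being the longest of the 21 chromosomes (20287 to 21663 bp on the 18 outside group 1). On 1A 365 pairs lay 1 to 2 kb apart, 183 lay 3 to 4 kb apart, 175 lay 4 to 5 kb apart and 625 lay 5 to 6 kb apart. The same classes held 463, 209, 222 and 679 pairs on 1B and 260, 115, 159 and 503 pairs on 1D. Distances of 2 to 5 kb made up 3.11% of the group 1 pairs and 3.09% of the pairs elsewhere, and distances of 5 to 8 kb made up 10.2% and 10.1%. The sharp increase at 5 kb was seen on 1A, 1B and 1D and on the other 18 chromosomes together, and its cause was not tested.

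**Figure D4:**
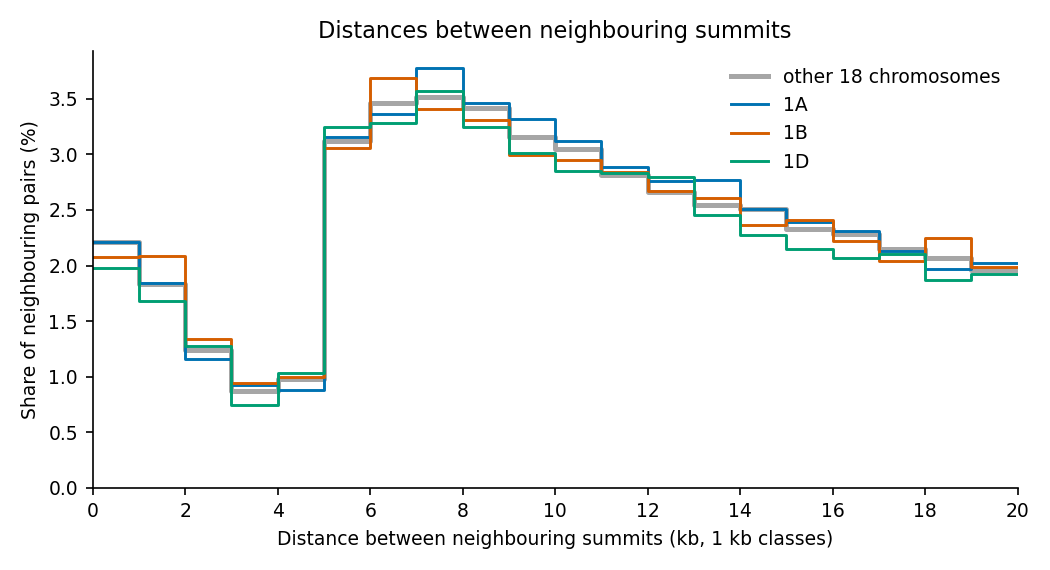
Share of neighbouring summit pairs (vertical axis, percent) in each 1 kb class of distance up to 20 kb for 1A, 1B, 1D and the other 18 chromosomes together. All curves fall to their lowest values between 3 and 5 kb and step up at 5 kb, from 175 to 625 pairs on 1A.

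Close neighbours differed from lone peaks in the same way on each homoeologue. Within 2 kb of another summit lay 1597 peaks of 1A (8.06%), 1841 of 1B (8.31%) and 1123 of 1D (7.25%), nearly all in pairs. The share was 7.94% in group 1 and 8.03% on the other 18 chromosomes. Runs of 3 peaks occurred 7 times on 1A, 9 times on 1B and 9 times on 1D, and no run was longer. Runs of 3 or more held 0.131% of the group 1 peaks and 0.147% of the peaks elsewhere. The peaks with a close neighbour had a median width of 365 bp on 1A, 373 bp on 1B and 360 bp on 1D, compared with 485, 501 and 492 bp for the others. Their median fold enrichment was 5.93, 5.91 and 5.91 compared with 6.18, 6.27 and 6.26, although their median pileup was 12, 13 and 12 tags. Their median background was higher, at 1.16, 1.21 and 1.23 tags compared with 0.968, 0.968 and 0.933. Group 1 peaks did not overlap, so a close neighbour also limits the width that a peak can have. The parts of this limit and of the background in these differences were not tested.

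The longest distances without a peak exceeded 1 Mb on 1A and 1B. On 1A the longest lay between summits at 421067474 and 422123667 (1056193 bp) and the second between 5623190 and 6418540 (795350 bp). On 1B the longest lay between 578768413 and 579917397 (1148984 bp), within the poor bin from 570 to 580 Mb, and the second between 319532852 and 320214297 (681445 bp). On 1D the longest lay between 488744870 and 489622247 (877377 bp) and the second between 487971527 and 488744870 (773343 bp), and both adjoined the same summit in the sparse end. Distances over 500 kb occurred 3 times on 1A, 12 times on 1B and 4 times on 1D. That was 19 of 57455 pairs in group 1, against 117 of 402654 pairs on the other 18 chromosomes. Distances over 200 kb made up 0.242% of the pairs on 1A, 0.496% on 1B and 0.368% on 1D, compared with 0.305% on the other 18 chromosomes together. The cause of these gaps was not tested.

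A small number of peaks lay over a high background, and most of them lay near another such peak. The list keeps only fold enrichments above 5, so a peak over a high background is in it only if it has many tags. The background exceeded 5 tags at 21 summits on 1A, 15 on 1B and 28 on 1D. These were 0.106%, 0.0677% and 0.181% of the peaks, against 0.0369 to 0.261% on the other 18 chromosomes. Of the summits on 1A, 1B and 1D, 14, 11 and 23 lay within 100 kb of another such peak. The background is a local value that near neighbours can share, so this grouping is partly set by the measure. The 6 peaks of 1A from 554444259 to 554517546 had pileups of 74 to 220 tags and backgrounds of 8.96 to 38.8 tags, the last being the highest background on the named chromosomes. Their fold enrichment was 5.29 to 16.4. On 1B, 7 such peaks from 633708560 to 633751563 had 39 to 219 tags and a fold enrichment of 5.33 to 12.4. On 1D, 10 such peaks from 254399567 to 254534742 had 39 to 126 tags and a fold enrichment of 5.42 to 11.7, and 5 more from 51824469 to 51919107 had 34 to 133 tags. The 3 bins with the highest mean pileup of their homoeologues, among complete bins, held peaks of a background above 5 tags. Such peaks have many tags by the filter, so leaving them out lowers the mean in any case. The mean pileup of the 1A bin from 550 to 560 Mb was 16.3 tags, the highest of the 1397 complete bins, and without its 8 peaks of a background above 5 tags it was 13.3. For the 1B bin from 630 to 640 Mb the mean was 14.99 tags with all peaks and 13.2 without 7, and for the 1D bin from 250 to 260 Mb it was 14.9 tags with all peaks and 12.8 without 10. The median was 12 tags in each of the 3 bins. The cause of the high backgrounds was not tested.

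**Figure D5:**
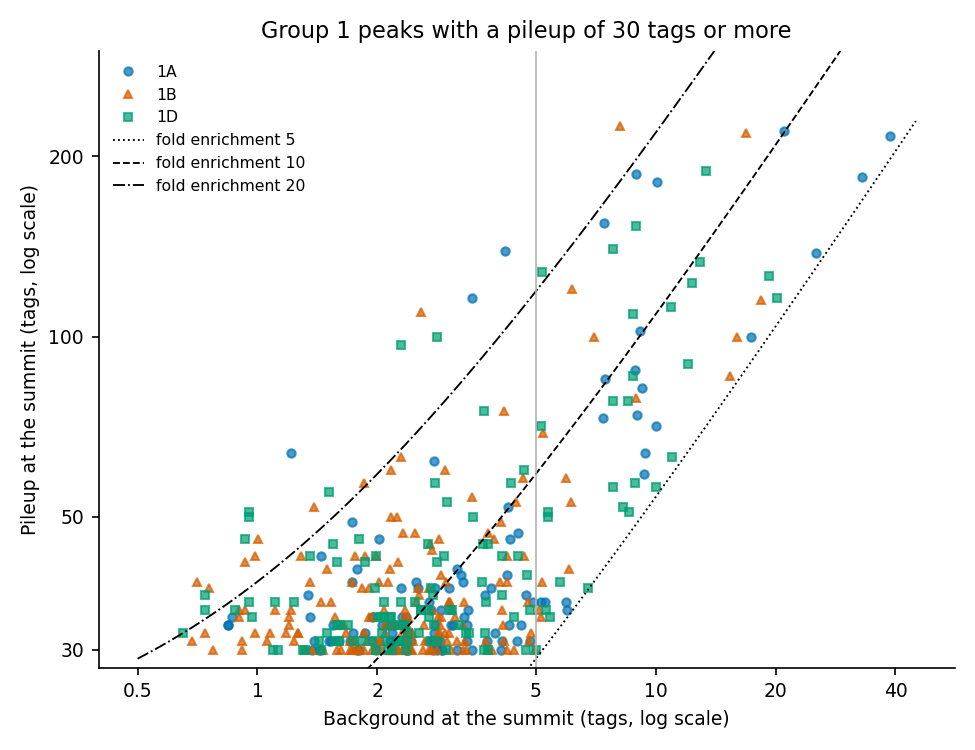
Pileup against background at the summit (tags, both on log scales) for the peaks of 1A, 1B and 1D with a pileup of 30 tags or more, with lines of equal fold enrichment at 5, 10 and 20 and a vertical line at a background of 5 tags. Peaks right of the vertical line reach 225 tags, and the 1A peaks over backgrounds of 25.3 to 38.8 tags lie next to the line of 5, while the 1B peak with 110 tags and a fold enrichment of 31.1 lies over a background of 2.57 tags.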

How the data were processed

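Fielder leaf DNA was assayed by DAP-seq in 2 CCA1 and 2 input libraries. According to their methods and processing notes, the authors trimmed the reads with Trimmomatic, mapped them with Bowtie2 2.3.4 onto the wheat genome of Ensembl, kept reads with a mapping quality above 10 (SAMtools 1.9), removed duplicates with Picard and called peaks with MACS2, keeping those enriched more than 5-fold with an FDR under 1e-5. According to the paper, peaks that overlapped DNase I hypersensitive sites, which mark accessible chromatin, were then used further. The peaks described here were not limited to those. The control used for peak calling and any pooling of libraries are not given in the sources used here. The deposited list holds, for each peak, the authors' fold enrichment (a ratio), −log10 p-value, −log10 q-value, a score derived from the q-value and the summit. The list carries no column of a single library, and 0 columns were left without an assignment.

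Pileup n and background b were worked back from the deposited values by (n + 1)/(b + 1) for the fold enrichment and the Poisson probability of more than n tags for the p-value, taking the whole n with the smallest misfit (under 0.0001 for 100.0% of peaks). This step and the permutation test were tested on simulated data. Summits were assigned to 10 Mb bins counted from the chromosome start, and the last, incomplete bin was left out of comparisons. Chromosome length was taken up to the last peak. Group 1 was compared with the other chromosomes by an exact two-sided permutation test within subgenomes, adjusted over 6 measures. Alternatives changed the thresholds, bins, ends, distances and matching. On each chromosome the text names the 3 most enriched peaks, the widest peak, the bins with most and fewest peaks and the highest and lowest median fold enrichment, and the 2 longest distances. Other named stretches were picked after their values were seen. The members, measures and tests were chosen with earlier results of these data known. Python 3.11.15, numpy 2.4.6, pandas 2.3.3, scipy 1.17.1 and matplotlib 3.10.9 were used.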

Additional observations from a re-analysis of the deposited data

How the results depend on the processing

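No paired analysis was possible because the list does not separate the libraries, and for the same reason no replicate could be left out. None of the 6 measures passed the test under any of the 30 other settings, and 26 of these kept the direction. The other 4 did not. With a fold enrichment above 10 alone, the density difference became 0.0457 peaks per Mb (adjusted exact permutation p = 0.274, range over its other settings 0.274 to 0.724) and the CV difference −2.63 percentage points (adjusted exact permutation p = 0.287, range 0.287 to 0.939). Without the outer 10% of the length at each end the width difference was 0 bp (adjusted exact permutation p = 1.00, range 0.691 to 1.00). With an FDR below 1e-10 the difference in neighbours within 2 kb became 0.166 percentage points (adjusted exact permutation p = 0.175, range 0.175 to 0.833). The cause of these changes was not tested. The adjusted p for the share of strong peaks ranged from 0.175 to 0.514. Without the sparse end of 1D, a setting chosen after seeing the data, the density difference was −0.323 peaks per Mb and the CV difference 0.739 percentage points (adjusted exact permutation p = 0.518 and 0.603). Profiles over 50 relative parts had a mean r of 0.0256. Joining peaks closer than 1 kb left 55809 regions. Most peaks rest on under 20 tags, so single fold enrichments have a wide counting error.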
